A study of Mus musculus with 75 samples.

Results

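The complement genes C1qa, C1qb, C1qc, C1ra, C4b, C3, Serping1 and Cd59a were followed in RNA of the mouse brain carrying mutations of Dnmt3a, which encodes a DNA methyltransferase. These 8 members were taken by name, and all were found among the 37310 gene identifiers of the cortex and nuclei files and the 55487 of the hippocampus files. The series holds 75 samples, of which 26 RNA libraries in 10 groups were used. All came from C57BL/6 mice at postnatal day 21.

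The groups were Dnmt3a1-/- cerebral cortex (3 libraries), Dnmt3a2-/- cortex (2), Dnmt3a1_delta_N cortex (3), Dnmt3a1-/- hippocampus (3) and cortical neuron nuclei labelled Dnmt3a1-/- (2), with wild type cortex (8), hippocampus (3) and nuclei (2). The first 2 genotypes lack one isoform of DNMT3A each, by their names, and the series title concerns the disordered N-terminal domain of the protein. Titles put the wild type cortex libraries in 3 numbering series. The plain series (3 libraries) was set against Dnmt3a1-/-, the r series (2) against Dnmt3a2-/- and the n series (3) against Dnmt3a1_delta_N, although no label ties a series to a mutant. The nuclei were dounced from cortex and sorted with an antibody to NeuN, a protein of neuronal nuclei. The labels name no Cre or driving promoter.

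As background, complement starts in the classical pathway when C1q, built from the C1QA, C1QB and C1QC chains, binds a surface and activates the proteases C1r and C1s. These cleave C4 and C2, and the resulting convertase cleaves C3, whose fragments tag the surface for phagocytes and lead on to the membrane attack complex. SERPING1 inhibits C1r and C1s, and CD59 blocks assembly of the membrane attack complex. In the brain, microglia are the main source of C1q, and C1q, C3 and C4 are known for their part in the removal of synapses during development.

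The promoters of C1qb and C1qc are shown because these genes moved together across libraries, and that of Cd59a because it was among the members that rose in Dnmt3a1-/- cortex. Each is the 250 bases before the RefSeq transcription start (build GRCm38.p6), 5′ to 3′ on the gene's strand, and capitals mark matches to the motifs searched. The C1qb window is chr4:136886201-136886450 and the C1qc window chr4:136892915-136893164, both on the minus strand, and the Cd59a window is chr2:104095551-104095800 on the plus strand.
C1qb: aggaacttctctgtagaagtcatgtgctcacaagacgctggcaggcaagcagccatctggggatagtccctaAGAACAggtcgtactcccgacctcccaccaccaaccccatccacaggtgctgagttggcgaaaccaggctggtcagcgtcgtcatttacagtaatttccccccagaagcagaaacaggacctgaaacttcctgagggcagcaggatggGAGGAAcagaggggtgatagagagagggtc
C1qc: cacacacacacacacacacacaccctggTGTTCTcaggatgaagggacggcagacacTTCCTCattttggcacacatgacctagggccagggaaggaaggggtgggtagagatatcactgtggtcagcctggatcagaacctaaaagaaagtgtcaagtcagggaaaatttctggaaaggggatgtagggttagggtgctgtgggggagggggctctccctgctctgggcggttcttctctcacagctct
Cd59a: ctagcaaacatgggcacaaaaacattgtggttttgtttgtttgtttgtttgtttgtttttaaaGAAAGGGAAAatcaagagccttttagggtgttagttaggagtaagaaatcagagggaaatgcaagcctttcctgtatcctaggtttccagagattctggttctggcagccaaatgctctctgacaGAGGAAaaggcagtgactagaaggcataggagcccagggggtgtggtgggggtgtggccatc
Of the 8 members, 5 had a window in the table (C1qb, C1qc, C1ra, C3 and Cd59a). GAGGAA, the core bound by PU.1 (a myeloid transcription factor), was found on either strand once each in C1qb, C1qc and Cd59a and in 23.3% of all 32851 windows. TGTTCT, part of the glucocorticoid receptor element, occurred once each in C1qb and C1qc and in 16.1% of windows. The interferon-stimulated element occurred once in Cd59a and in 2.98% of windows, and TTCNNNGAA, the STAT element, in none of the 5 windows and 7.02% of all. No motif match overlapped another. The Cd59a window held 0 CG dinucleotides, which 7.87% of windows do. Those of C1qb, C1qc, C1ra and C3 held 6, 2, 5 and 1, beside a median of 6. In the same RefSeq table C1qb, C1qc and C1qa are neighbours on chromosome 4, C1ra lies on chromosome 6 between C1rl and C1s1, C4b and C3 lie on chromosome 17, and Serping1 and Cd59a on chromosome 2.

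Libraries held 8677149 to 39049155 counts in genes. Levels are counts per 1000000 gene counts (CPM), which are not scaled by gene length, so levels are compared between libraries and not between genes. Dnmt3a itself fell by 1.02 on the log2 scale in Dnmt3a1-/- cortex (standard error, SE, 0.07, adjusted p = 1.2e-05) and by 1.04 in Dnmt3a1-/- hippocampus (SE 0.09, adjusted p = 0.00011). In the nuclei libraries labelled Dnmt3a1-/- it had 382 and 369 CPM, against 405 and 399 CPM in wild type nuclei, and did not pass the test (log2 fold change -0.10, SE 0.15, adjusted p = 0.89). The counts do not say which isoform they come from. Between the plain, r and n series of wild type cortex, expression differed in 43.9% of 16492 genes tested (edgeR, adjusted p under 0.05) and in 6 of the 8 members, C1qa, C1qb, C1qc, C4b, Cd59a and Serping1. Each mutant is therefore compared with its own series first. In tissue, fewer cells of a type and less RNA per cell cannot be told apart.

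**Figure D1:**
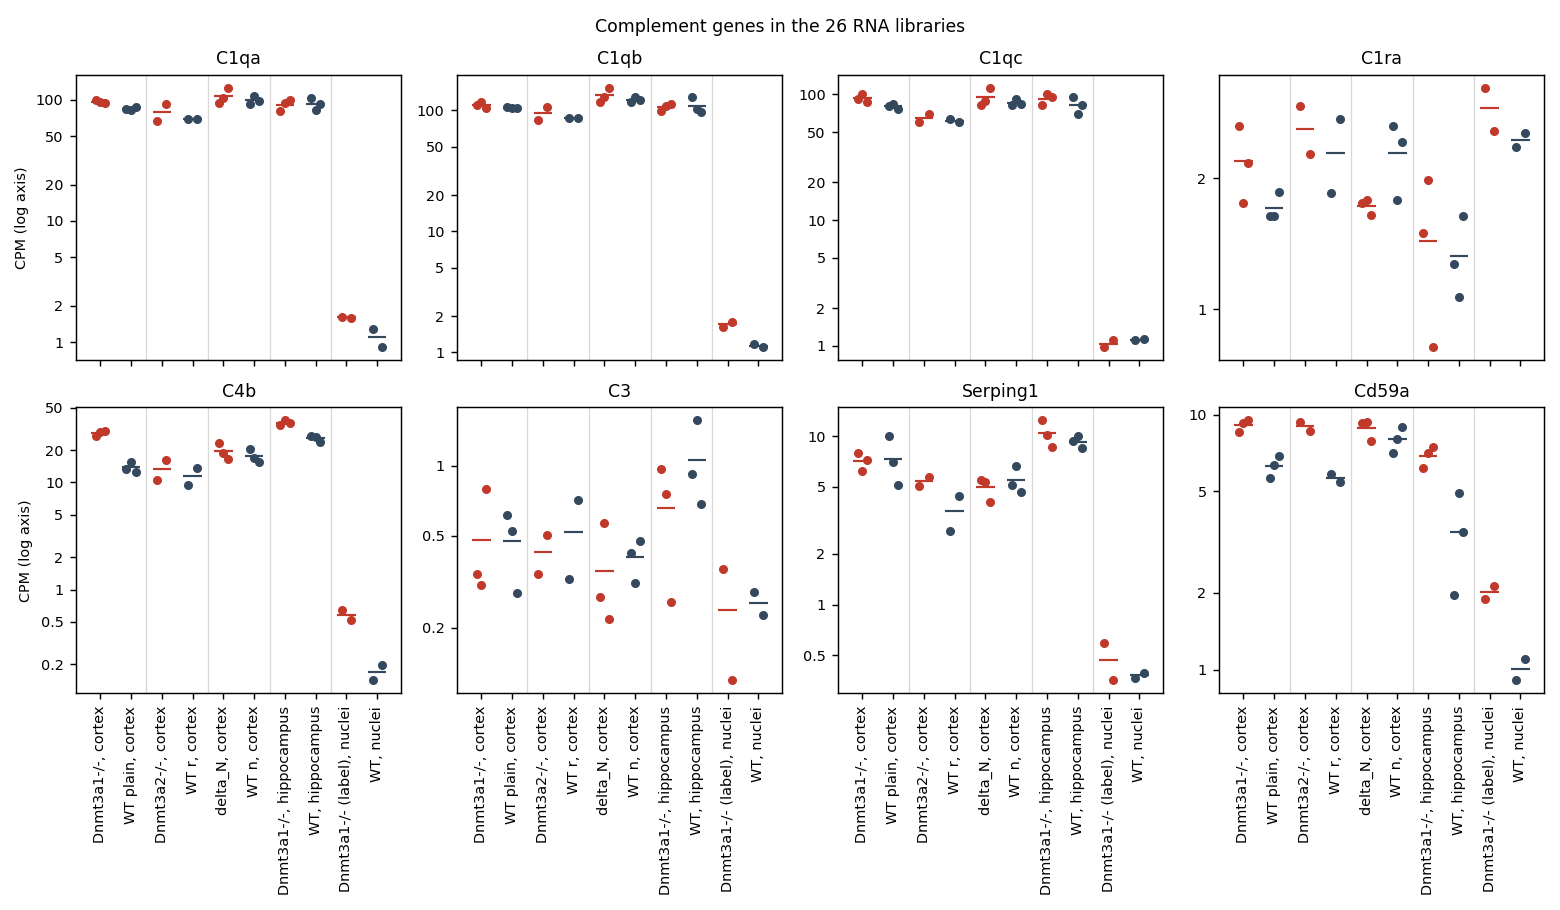
CPM (log axis) of the 8 complement genes, 1 point per library, with the group mean as a line; mutant groups (red) stand left of their wild type (dark). C4b in Dnmt3a1-/- cortex (26.9 to 30.1 CPM) and hippocampus (34.4 to 38.0 CPM) lies above all libraries of the matching wild type, and 6 of the 8 genes drop by a log2 of 2.94 or more in sorted nuclei.

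Of the 8 members, 2 rose in Dnmt3a1-/- cortex (C4b and Cd59a) at an adjusted p under 0.05, the threshold for every call here, and none fell. There 17.9% of 15933 genes tested were called, 8.95% as higher, and 8 members are too few to set 2 of 8 apart from these shares. The members had a median log2 fold change of 0.21, beside 0.01 over all genes. In 4 of the 8 (C1qa, C1qc, C4b and Cd59a) every mutant library was above every wild type library, as in 18.4% of all genes. In Dnmt3a1-/- hippocampus 1 member rose (C4b), where 2.52% of 15727 genes were called, 1.69% as higher. There 2 of the 8 (C4b and Cd59a) had every mutant library above every wild type library, beside 13.9% of all genes. None was called in Dnmt3a2-/- cortex (0.00628% of 15929 genes called), in Dnmt3a1_delta_N cortex (0% of 15881) or in the nuclei labelled Dnmt3a1-/- (0.246% of 15860). At an unadjusted edgeR p under 0.05 the numbers were 2 members in Dnmt3a2-/- cortex (Cd59a and Serping1), beside 457 of 15929 genes. Dnmt3a1_delta_N cortex had 0 members (1267 of 15881 genes) and the nuclei 2 (C4b and Cd59a, beside 1425 of 15860 genes). DESeq2 called 0 members in each of these 3. Every mutant library was above every wild type library for 2 members in Dnmt3a2-/- cortex (14.8% of all genes), 0 in Dnmt3a1_delta_N cortex (5.74%) and 5 in the nuclei (18.9%), namely C1qa, C1qb, C1ra, C4b and Cd59a. With the replicate number as a block, Dnmt3a1-/- cortex had 4 members and 4941 genes called (31% of those tested), against 2845 genes without it. With the block Dnmt3a1_delta_N cortex had 0 members and 0.749% of genes called, against 0 genes without it (1267 at an unadjusted p under 0.05, 44 in DESeq2).

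Among the recognition chains, C1qa and C1qc were slightly higher in Dnmt3a1-/- cortex without passing the test. C1qa had 100.4, 96.75 and 93.5 CPM in Dnmt3a1-/- cortex, against 83.4, 81.8 and 87.5 CPM in wild type cortex (log2 fold change 0.20, SE 0.07, adjusted p = 0.054). C1qc had 91.6, 101.0 and 87.2 CPM in Dnmt3a1-/- cortex, against 80.7, 83.0 and 76.9 CPM in wild type cortex (0.21, SE 0.07, adjusted p = 0.051). The groups did not overlap for either gene, and with the replicate block both passed, C1qa at an adjusted p of 0.0092 and C1qc at 0.0042. That blocked edgeR fit called 31% of all 15933 genes tested. C1qc also passed without the mutant replicate 3 (adjusted p = 0.041). C1qb, the remaining chain, overlapped, with 111.5, 116.6 and 105.7 CPM in Dnmt3a1-/- cortex and 107.5, 104.1 and 104.1 CPM in wild type cortex (0.08, SE 0.07, adjusted p = 0.46). Against all 8 wild type cortex libraries, C1qa had an adjusted p of 0.26 and C1qc one of 0.092.

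No chain was called in the other mutant groups. Their log2 fold changes ran from 0.06 to 0.17 in Dnmt3a2-/- cortex, from 0.14 to 0.15 in Dnmt3a1_delta_N cortex and from -0.05 to 0.15 in Dnmt3a1-/- hippocampus. In the nuclei labelled Dnmt3a1-/-, C1qa gave 0.55 (SE 0.32), C1qb 0.59 (SE 0.30) and C1qc -0.11 (SE 0.33), each at 28 to 64 counts per library. The 2 Dnmt3a2-/- libraries stood apart from each other, with 66.3 and 91.8 CPM of C1qa, against 69.8 and 69.8 CPM in the r series. Without replicate 1 of that mutant, C1qa was called (log2 fold change 0.37, adjusted p = 0.036). The same 2 libraries, replicates 1 and 2, had 27.5 and 1640 CPM of summed choroid plexus and ependymal markers, 1350 and 1550 CPM of microglia markers and 253 and 383 CPM of the reactive astrocyte list, and the part of these in the C1qa values was not tested. Dnmt3a1_delta_N replicate 3 was the highest of the 26 libraries for each chain, with 126.4 CPM of C1qa, 154.8 CPM of C1qb and 113.0 CPM of C1qc. The means of C1qa, from high to low, were 108 CPM in Dnmt3a1_delta_N cortex, 99.4 in the n series, 96.9 in Dnmt3a1-/- cortex, 92.8 in wild type hippocampus, 91.0 in Dnmt3a1-/- hippocampus, 84.2 in the plain series, 79.0 in Dnmt3a2-/- cortex and 69.8 in the r series, with SDs of 0.0204 to 18.0. All neighbours in that order overlapped.

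Shares of the 3 chains varied by a few percentage points in tissue. In the 22 tissue libraries C1qa made up 30.4 to 34.0%, C1qb 35.9 to 40.3% and C1qc 26 to 32.9% of the C1q counts, which summed to 2844 to 10802 per library. These are shares of reads, not scaled by length. The C1qb share was 36.7, 37.1 and 36.9% in Dnmt3a1-/- cortex, against 39.6, 38.7 and 38.8% in the plain series, and the groups did not overlap. In Dnmt3a1-/- hippocampus (38.0, 36.1 and 36.8%) it overlapped wild type hippocampus (39.4, 40.3 and 35.9%). Dnmt3a2-/- and Dnmt3a1_delta_N cortex overlapped their series as well. Differences in shares were not tested. In the nuclei, at 111 to 165 C1q counts per library, the C1qc share was 23.0 and 24.8% in those labelled Dnmt3a1-/-, against 31.2 and 36.0% in wild type. Deviations from the group mean correlated at r = 0.84 between C1qa and C1qb, 0.87 between C1qb and C1qc and 0.74 between C1qa and C1qc over 26 libraries. The libraries differ in depth and may differ in batch.

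**Figure D2:**
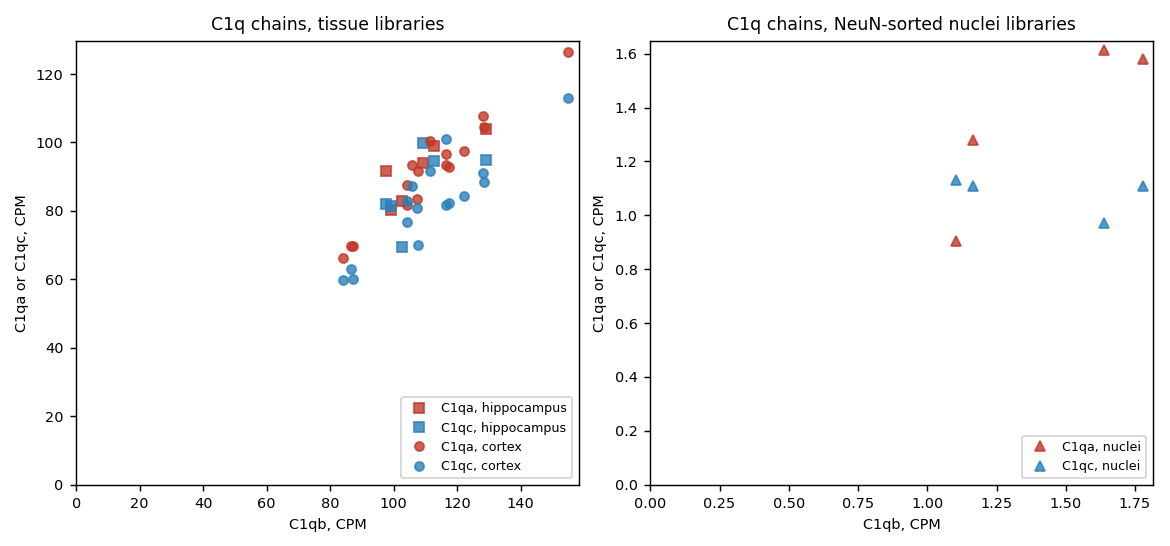
CPM of C1qa (red) and C1qc (blue) against C1qb, 1 point per library and chain, in 22 tissue libraries (left; squares hippocampus, circles cortex) and 4 sorted nuclei libraries (right). In tissue both chains are higher where C1qb is higher; in nuclei the 3 chains together have 3.14 to 4.47 CPM, from 111 to 165 counts.

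C1ra, the protease activated by C1q, was read at low counts (11 to 126 per library) and was called in no mutant group. It had 2.64, 1.75 and 2.16 CPM in Dnmt3a1-/- cortex, against 1.64, 1.64 and 1.86 CPM in wild type cortex (log2 fold change 0.31, SE 0.21, adjusted p = 0.33). Its other changes were 0.18 in Dnmt3a2-/- cortex, -0.38 in Dnmt3a1_delta_N cortex, 0.04 in Dnmt3a1-/- hippocampus and 0.25 in the nuclei labelled Dnmt3a1-/-, with SEs of 0.20 to 0.35. The near-identical C1rb was listed in the hippocampus files only, with 0 counts in all 6 libraries.

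C4b, the C4 gene of the classical and lectin pathways, showed the largest called change of a member in any mutant group. It had 26.9, 29.5 and 30.1 CPM in Dnmt3a1-/- cortex (316 to 794 counts), against 13.4, 15.6 and 12.6 CPM in wild type cortex (224 to 419 counts). The groups lay far apart, with a log2 fold change of 1.05 (SE 0.10, adjusted p = 4.5e-05). Leaving out any 1 library gave 1.00 to 1.15, and all 8 wild type cortex libraries gave 0.99 (adjusted p = 0.002). In Dnmt3a1-/- hippocampus C4b had 34.4, 38.0 and 35.7 CPM, against 27.1, 26.6 and 23.8 CPM in wild type hippocampus. Again the groups did not overlap, and C4b rose by a log2 of 0.46 (SE 0.10, adjusted p = 0.025). This call was lost without Dnmt3a1-/- hippocampus replicate 2 (adjusted p = 0.11) or 3 (0.073), and without wild type hippocampus replicate 2 (0.089) or 3 (0.11), at fold changes of 0.41 to 0.48.

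C4b did not pass in the other groups. It had 10.6 and 16.2 CPM in Dnmt3a2-/- cortex, against 9.38 and 13.7 CPM in the r series (log2 fold change 0.19, SE 0.23, adjusted p = 1). It had 23.5, 18.9 and 16.4 CPM in Dnmt3a1_delta_N cortex, against 20.4, 17.1 and 15.6 CPM in the n series (0.16, SE 0.13, adjusted p = 0.84). Both pairs overlapped. In the nuclei labelled Dnmt3a1-/- it had 25 and 13 counts (0.640 and 0.514 CPM), against 5 and 7 counts (0.142 and 0.198 CPM) in wild type nuclei. That gave a log2 fold change of 1.76 (SE 0.52, adjusted p = 0.24 by edgeR's quasi-likelihood test), on few reads. The order of C4b means was Dnmt3a1-/- hippocampus (36.0 CPM), Dnmt3a1-/- cortex (28.8), wild type hippocampus (25.8), Dnmt3a1_delta_N cortex (19.6), n series (17.7), plain series (13.9), Dnmt3a2-/- cortex (13.4) and r series (11.6). Neighbours overlapped except Dnmt3a1-/- hippocampus with Dnmt3a1-/- cortex and wild type hippocampus with Dnmt3a1_delta_N cortex.

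C4a, a close copy of C4b that RefSeq lists as a transcribed pseudogene, could share reads with it, so the split between the pair is uncertain. C4a averaged 2.44 CPM in Dnmt3a1-/- cortex and 1.71 CPM in wild type cortex (log2 fold change 0.50, SE 0.21, adjusted p = 0.12). It was 10.1 to 20.0 CPM in the 4 nuclei libraries and 1.31 to 3.98 CPM in tissue.

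Differences between the C4b changes were tested as well, and none passed with the low count filter, all libraries and no block. With the replicate block, those of Dnmt3a1_delta_N and Dnmt3a2-/- from Dnmt3a1-/- cortex passed. Its change in Dnmt3a1-/- hippocampus minus that in Dnmt3a1-/- cortex was -0.59 (SE 0.13, adjusted p = 0.55 by edgeR), where 0% of 15433 genes were called (777 at an unadjusted p under 0.05, while DESeq2 was not run on these differences). The change in Dnmt3a1_delta_N minus that in Dnmt3a1-/- cortex was -0.89 (SE 0.17, adjusted p = 0.068), where 0.103% of 16456 genes were called. With the replicate block, which matches the likely pairs in both comparisons, that difference passed (-0.89, SE 0.11, adjusted p = 0.00042 by edgeR). There 2.91% of genes were called. That difference also passed without Dnmt3a1_delta_N replicate 1 (0.0043, 184 genes called in all) and without the low count filter (0.0054, 67 genes). The main fit called 17 genes. In 12 of its 15 alternatives the difference stayed uncalled, and leaving out 1 library gave edgeR adjusted p-values of 0.0043 to 0.23. The change in Dnmt3a2-/- minus that in Dnmt3a1-/- cortex was -0.87 (SE 0.24, adjusted p = 0.18 by edgeR), where 0.205% of 16611 genes were called. It passed without the low count filter (-0.85, adjusted p = 0.00012 by edgeR), where 591 genes were called, against 34 with the filter. Without Dnmt3a2-/- replicate 2 it was -1.17, and leaving out any 1 library gave -1.17 to -0.58. Cd59a passed in none of these 3 tests. The tissues' libraries were counted with different annotations, and only shared identifiers entered.

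C3, the component on which the pathways converge, had 3 to 28 counts per library, too few for small changes to be detectable. It had 0.341, 0.305 and 0.797 CPM in Dnmt3a1-/- cortex, against 0.614, 0.522 and 0.281 CPM in wild type cortex (log2 fold change 0.06, SE 0.43, adjusted p = 0.94). In Dnmt3a1-/- hippocampus it had 0.968, 0.752 and 0.258 CPM, against 0.922, 1.57 and 0.682 CPM in wild type hippocampus. These overlapped (-0.90, SE 0.46, adjusted p = 0.33). C3 gave -0.35 in Dnmt3a2-/- cortex, -0.12 in Dnmt3a1_delta_N cortex and 0.02 in the nuclei labelled Dnmt3a1-/-, with SEs of 0.41 to 0.60.

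Cd59a, whose product keeps the membrane attack complex from forming on the cell's own surface, was called in Dnmt3a1-/- cortex. It had 8.51, 9.26 and 9.48 CPM in Dnmt3a1-/- cortex, against 5.64, 6.34 and 6.86 CPM in wild type cortex. The groups did not overlap, and it rose by a log2 of 0.54 (SE 0.12, adjusted p = 0.0094). Without any 1 library the change was 0.45 to 0.61 with adjusted p-values of 0.014 to 0.036, and with all 8 wild type cortex libraries 0.45 (adjusted p = 0.042). In Dnmt3a1-/- hippocampus it had 6.16, 7.04 and 7.45 CPM, against 1.96, 4.93 and 3.48 CPM in wild type hippocampus. That was a log2 fold change of 0.91 (SE 0.24, adjusted p = 0.066 by edgeR). It passed without the low count filter (0.00051), in DESeq2 (0.031) and without wild type hippocampus replicate 2 (1.26, adjusted p = 0.049 by edgeR). In 7 of its 10 alternatives it stayed uncalled, and leaving out 1 library gave 0.69 to 1.26 (edgeR adjusted p of 0.049 to 0.19).

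In Dnmt3a2-/- cortex Cd59a had 9.34 and 8.65 CPM, against 5.87 and 5.42 CPM in the r series (log2 fold change 0.67, SE 0.15, adjusted p = 0.62 by edgeR). It passed without Dnmt3a2-/- replicate 2 (adjusted p = 0.034) and without the low count filter (0.042), and with all 8 wild type cortex libraries the change was 0.39 (adjusted p = 0.69). The nuclei labelled Dnmt3a1-/- had 1.90 and 2.14 CPM (74 and 54 counts), against 0.909 and 1.10 CPM (32 and 39 counts) in wild type nuclei (log2 fold change 1.00, SE 0.30, adjusted p = 0.25 by edgeR). Dnmt3a1_delta_N cortex, with 9.26, 9.34 and 7.85 CPM, overlapped the n series, with 7.05, 8.03 and 8.93 CPM (0.16, SE 0.12, adjusted p = 0.81). The close copy Cd59b had 1 to 28 counts per library.

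Serping1, the inhibitor of C1r and C1s, varied among wild type libraries. It had 8.0, 6.25 and 7.21 CPM in Dnmt3a1-/- cortex, against 9.98, 7.01 and 5.12 CPM in wild type cortex (log2 fold change -0.08, SE 0.20, adjusted p = 0.83). In Dnmt3a2-/- cortex it had 5.04 and 5.76 CPM, against 2.75 and 4.43 CPM in the r series, without overlap (0.57, SE 0.22, adjusted p = 1 by edgeR). With all 8 wild type cortex libraries that change was -0.10. Serping1 gave -0.13 in Dnmt3a1_delta_N cortex, 0.12 in Dnmt3a1-/- hippocampus and 0.35 in the nuclei labelled Dnmt3a1-/-, none called.

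**Figure D3:**
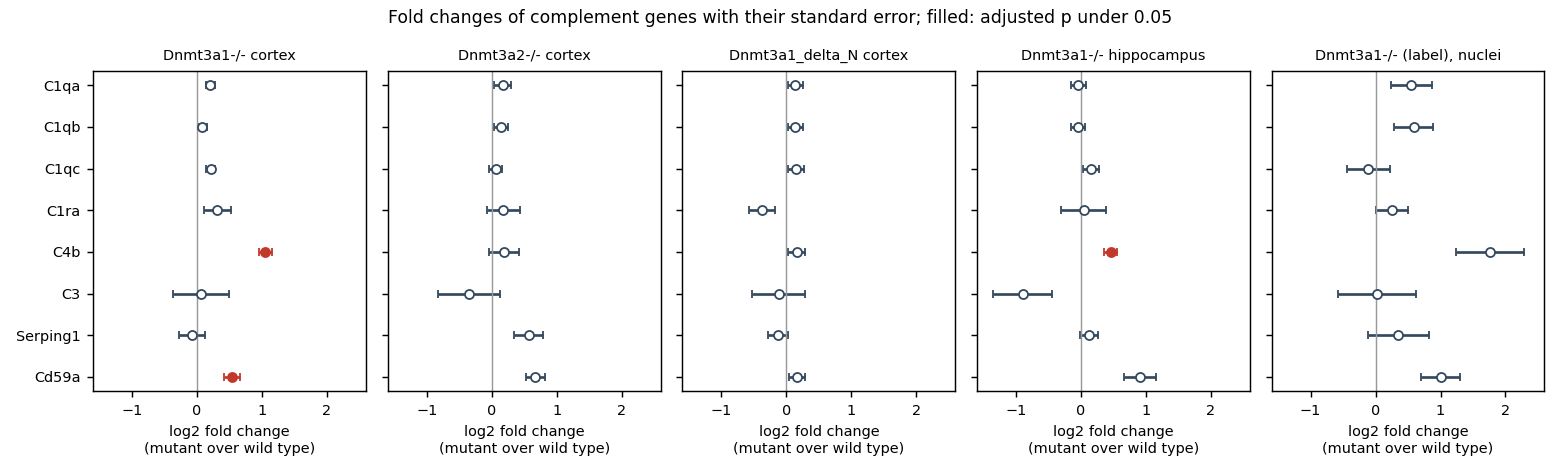
Log2 fold change of mutant over wild type (x axis) for the 8 complement genes in 5 comparisons, with bars of 1 SE; filled red points have an adjusted p under 0.05. C4b (1.05) and Cd59a (0.54) are filled in Dnmt3a1-/- cortex and C4b (0.46) in Dnmt3a1-/- hippocampus.

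Among wild type libraries, 3 members differed between hippocampus and cortex (plain series), where 45.3% of 14897 genes were called, 22.1% as higher and 23.2% as lower. C4b averaged 25.8 ± 1.76 CPM in hippocampus and 13.9 ± 1.57 CPM in cortex (SD, n = 3 each), a log2 fold change of 0.82 (SE 0.10, adjusted p = 5.8e-05 by edgeR). Cd59a went the other way, with 3.46 ± 1.49 CPM in hippocampus and 6.28 ± 0.611 CPM in cortex (-0.84, SE 0.23, adjusted p = 0.014), and was lost without hippocampus replicate 3 (0.055). C3 averaged 1.06 ± 0.459 CPM in hippocampus and 0.472 ± 0.172 CPM in cortex (1.10, SE 0.39, adjusted p = 0.040). C3 was lost without hippocampus replicate 2 (0.61, adjusted p = 0.32), without cortex replicate 2 (0.085) or 3 (0.11), and in DESeq2 (0.11). The C1q chains gave 0.07, -0.01 and -0.04 for C1qa, C1qb and C1qc and were not called. Serping1 (0.26) was called only without cortex replicate 1 (0.52, adjusted p = 0.026), and C1ra (-0.43) only with all 8 wild type cortex libraries (-0.68) among the alternatives tried. Tissue and the batch in which its libraries were counted cannot be told apart.

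The sorted nuclei were low in most members. In wild type nuclei, 7 of the 8 were lower than in wild type cortex, where 41.8% of 16787 genes were called lower and 83.9% in either direction. C1qa averaged 1.09 CPM in nuclei and 84.2 CPM in cortex (log2 fold change -6.56, SE 0.15), and C1qb and C1qc gave -6.83 and -6.46. C4b averaged 0.170 CPM in nuclei and 13.9 CPM in cortex (-6.61, SE 0.24), Serping1 gave -4.56 and Cd59a -2.94, the last at 1.01 CPM in nuclei and 6.28 CPM in cortex. C3 fell by 1.22 (SE 0.45, adjusted p = 0.022), with libraries that overlapped, and was lost in DESeq2 (adjusted p = 0.15) and without nuclei replicate 2 (0.098). C1ra, at 2.45 CPM in nuclei and 1.71 CPM in cortex, was not called (0.22, SE 0.22, adjusted p = 0.35). Lists of marker genes gave the scale: 18 of 18 microglia markers were lower in nuclei (median log2 fold change -6.70), as were 8 of 8 perivascular macrophage (-6.21), 16 of 16 mural and meningeal (-6.01), 14 of 14 astrocyte (-5.38), 12 of 12 oligodendrocyte (-5.72) and 12 of 12 endothelial markers (-6.84). Of 10 neuron markers 1 was higher, 6 were lower and the median was -0.55. None of the 18 microglia markers was at 0 in the nuclei, where they summed to 41.6 to 48.4 CPM, beside 1350 to 2160 CPM in tissue. Nuclear and whole-tissue RNA differ in kind as well as in cell type, and the labels do not tell these apart.

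**Figure D4:**
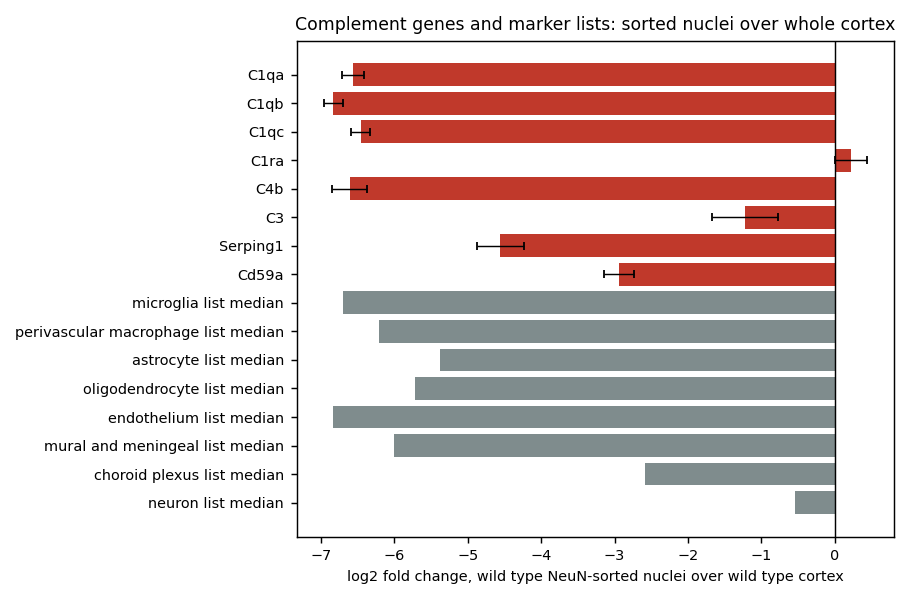
Log2 fold change of wild type NeuN-sorted nuclei over wild type cortex: red bars are the 8 complement genes with 1 SE, grey bars the median of each marker list. The 3 C1q chains (-6.83 to -6.46) and C4b (-6.61) lie among the microglia (-6.70), endothelial (-6.84), perivascular macrophage (-6.21) and mural lists (-6.01), Cd59a (-2.94) and C3 (-1.22) are smaller, and C1ra is at 0.22.

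Of the other genes on the complement lists, Cd93 and Itgam fell and Clu rose in Dnmt3a1-/- cortex. The counts below stand beside 17.9% of all genes called there, 8.95% as higher. Of 14 tested initiation genes of the classical and lectin pathways 1 rose, C4b itself, and 13 did not pass. C2, which joins C4 in the convertase, gave 0.50 (SE 0.26, adjusted p = 0.20) and C1s1, the partner protease of C1r, -0.16 (SE 0.25, adjusted p = 0.72). Of 13 regulators 2 rose, Cd59a and clusterin (Clu, a secreted chaperone that also inhibits the membrane attack complex). Clu averaged 1800 CPM in Dnmt3a1-/- cortex and 1540 CPM in wild type cortex (0.22, SE 0.06, adjusted p = 0.018). Of 7 tested genes listed as receptors 2 fell. Cd93 averaged 25.1 CPM in Dnmt3a1-/- cortex and 45.9 CPM in wild type cortex (-0.88, SE 0.10, adjusted p = 0.00015). Itgam, the alpha chain of complement receptor 3 on microglia, averaged 60.3 CPM in Dnmt3a1-/- cortex and 72.4 CPM in wild type cortex (-0.27, SE 0.08, adjusted p = 0.026). None of 2 genes of the alternative pathway and 3 terminal components passed. The medians of the initiation, regulator and receptor lists were 0.14, -0.13 and 0.19. In Dnmt3a1-/- hippocampus C4b rose, Cd93 fell (20.3 CPM, against 29.5 CPM in wild type hippocampus, log2 fold change -0.55, SE 0.13, adjusted p = 0.04), and no other gene of the 5 lists passed. No gene of these lists passed in Dnmt3a2-/- cortex, Dnmt3a1_delta_N cortex or the nuclei labelled Dnmt3a1-/-.

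Markers of the cells that could supply these transcripts are given beside the same 17.9% of all genes called in Dnmt3a1-/- cortex. There 3 of 18 microglia markers fell (Fcrls by 0.75, Olfml3 by 0.76 and P2ry13 by 0.28 on the log2 scale), the median was -0.05, and the list summed to 1690 to 1810 CPM in Dnmt3a1-/- cortex and 1780 to 2040 CPM in wild type cortex. Of 14 astrocyte markers 4 rose (among them Agt by 1.74, Aldh1l1 by 0.29 and Gja1 by 0.30) and Aqp4 fell by 0.51, with sums of 17200 to 18000 CPM in Dnmt3a1-/- cortex and 15900 to 17300 CPM in wild type cortex. Of 12 oligodendrocyte markers Mbp and Mobp rose. Of 12 tested genes linked to reactive astrocytes and the acute phase 4 rose beside C4b in Dnmt3a1-/- cortex, Steap4 (1.32), Cxcl10 (1.54), Serpina3n (0.74) and Osmr (0.40), at a list median of 0.01. Of 16 mural and meningeal markers 3 fell (Lum, Rgs5 and Col1a1), with sums of 772 to 838 CPM in Dnmt3a1-/- cortex and 841 to 1200 CPM in wild type cortex. Of 12 endothelial markers 1 rose (Slc2a1) and 2 fell (Emcn and Tek), of 10 neuron markers 3 fell (list median -0.17), of 7 tested blood markers 2 fell (median -1.24), and none of 8 perivascular macrophage markers passed (median -0.09). Choroid plexus and ependymal markers summed to 849 to 2050 CPM in Dnmt3a1-/- cortex and 136 to 777 CPM in wild type cortex (14 of 14 with a positive log2 fold change, none called). In Dnmt3a1-/- hippocampus 2 of 18 microglia markers fell, Fcrls by 0.86 and Olfml3 by 0.89, with sums of 1430 to 1640 CPM in Dnmt3a1-/- hippocampus and 1590 to 2160 CPM in wild type hippocampus. Of all genes 2.52% were called there. Choroid plexus and ependymal markers summed to 575, 1910 and 70.2 CPM in Dnmt3a1-/- hippocampus replicates 1 to 3, against 89.3 to 124 CPM in wild type hippocampus (10 of 11 tested with a positive log2 fold change, median 1.22, none called). Steap4 of the reactive list rose (2.10), Aqp4 and Rgs5 fell by 0.68 and 0.48, and 6 blood markers had a median of -1.14, none called. In Dnmt3a1-/- and plain series cortex no marker was at 0, except 1 gene of the reactive list in plain series replicate 3. The part of these markers in the changes of C4b and Cd59a was not tested.

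The genes whose deviations from the group mean most resembled each member were searched among 12408 genes over the 26 libraries. These libraries differ in depth and may differ in batch, so the values are descriptions. For C1qb, Cx3cr1 (the fractalkine receptor of microglia) came first at r = 0.89 and Cd68 (a lysosomal protein of phagocytes) reached 0.87. For C1qa, Yap1 (0.93), Slco2b1 (0.91) and Grin2c (0.91) led, and for C1qc, Prkab1 and Rpl10a (0.82 each). C4b was nearest to Lgals3bp and Kcnn3 (0.79 each), with H2-D1, a class I histocompatibility gene, at 0.72. Serping1 was nearest to Aldh1a2 and Ptgds (0.86 each), and C3 to Mrpl21 (0.79) and Aldh1a2 (0.78). Cd59a was nearest to Dnajc28 (0.88) and Hcrtr2 (0.83), and C1ra to Mrpl19 (0.77). Among the members themselves, outside the C1q chains, the highest value was 0.62 between C3 and Serping1.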

How the data were processed

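RNA libraries of cortex, hippocampus and NeuN-sorted nuclei were prepared by a kit that keeps strand, per the labels' protocols. Each deposited file gives 1 library's raw counts by gene, which the authors made with STAR 2.5.4a, HTSeq 0.11.0 and build mm9, per the submitters' processing notes. The annotation release and the strand setting are not given in the sources used here, so overlapping and antisense genes may share reads. Between 21.1% and 37.0% of reads lie in lines that name no gene and were left out. The other 49 samples were not analysed here.

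Counts were fitted with edgeR 4.0.16 (R 4.3.3): filterByExpr, TMM scaling, robust quasi-likelihood fit with 1 mean per group, F-test, Benjamini-Hochberg adjustment over all genes tested, call at 0.05. SEs were derived from each fold change and its F statistic. Differences between changes were interaction contrasts, and the 3 wild type series were compared in 1 F-test. Comparisons across tissues used the 32601 shared identifiers. The fits were tested on simulated data with known changes. Tests of differences between changes recovered too few of these for the first bar set, which was then lowered. A difference that did not pass may therefore have been missed. Symbols came from a supplied table (32620 and 55394 identifiers matched). Members and all 15 gene lists were chosen with earlier results of these data known; all members are named, with up to 4 called genes per list and genes among the 5 of highest r, of which 1 is not reported here. Genes named from these lists without a call (C2, C1s1, C4a) were chosen after their values were seen.

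No label states whether the libraries within a group are from different animals. The p-values then reflect only how these libraries vary, which may be technical. Same-numbered libraries deviated together in Dnmt3a1-/- cortex (r = 0.237, 0.376 and 0.184), Dnmt3a1_delta_N cortex (0.373, 0.240 and 0.419) and wild type hippocampus and cortex (0.336, 0.360 and 0.291). There the numbers were taken as likely pairs, from these values and not from the labels. The main tests, and every call not said to use the replicate block, ignore these pairs. The block added C1qa and C1qc to the calls in Dnmt3a1-/- cortex. Alternatives were DESeq2 1.42.0, RLE scaling, no low count filter, a replicate block, other controls and leaving out each library.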

Additional observations from a re-analysis of the deposited data

How the results depend on the processing

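Of 741 values of members under the alternatives, 661 kept their side of the threshold and, where the test has a direction, their direction. The F-test of the 3 wild type series has none. Of the rest, 20 lost a call, 19 gained one and 41 changed sign, all 41 of members not called. C4b in Dnmt3a1-/- cortex stayed called in all 12 alternatives (0.99 to 1.15), as did Cd59a (0.45 to 0.61). With the replicate block, 4 members were called in Dnmt3a1-/- cortex, where 31% of all genes tested were called. The block called 0 members in Dnmt3a1-/- hippocampus (1.56% of genes) and 1 in the nuclei labelled Dnmt3a1-/- (4.67%). It called 1 in each of the differences of Dnmt3a1_delta_N (2.91%) and Dnmt3a2-/- (1.77%) from Dnmt3a1-/- cortex. In hippocampus the numbers are not taken as pairs, since same-numbered libraries correlated at -0.056, 0.272 and 0.026. In Dnmt3a2-/- cortex (0.111) and nuclei (0.297), 2 libraries per group give only a single such value, so pairing was not decided. In edgeR the block gave C4b in hippocampus 0.47 (adjusted p = 0.058) and Cd59a in nuclei 1.01 (0.038). For the Dnmt3a2-/- difference in C4b the block gave -0.85 (0.0072). Without the low count filter, 1 member was called in Dnmt3a2-/- cortex (64 genes in all, against 1 in the main fit). In hippocampus 2 were called (1039 genes, against 396), and 1 in each of those 2 differences (67 and 591 genes, against 17 and 34). DESeq2 called 2 members and 595 genes in hippocampus. Leaving out 1 library gave 0 to 1 members in Dnmt3a2-/- cortex, hippocampus and both differences. The causes were not tested. Where a pair of libraries loses 1, the lone library is assumed to vary like the others, and C3 in wild type nuclei over cortex had no value without cortex replicate 1 or 2, since it failed the low count filter.

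Genes called in all moved by over 1.5 times in Dnmt3a1-/- cortex to 4941 (block) and 1599 (without wild type replicate 3), in Dnmt3a2-/- cortex to 64 (no filter), 55 (block), 7 (DESeq2) and 139 (without mutant replicate 2), in Dnmt3a1_delta_N cortex to 17 (no filter), 44 (DESeq2) and 0.749% of those tested (block), in hippocampus to 1039 (no filter), 595 (DESeq2), 246 (block) and 86 (without mutant replicate 2), and in nuclei to 243 (no filter), 70 (DESeq2), 740 (block) and 4 (without wild type replicate 1). The difference of Dnmt3a1_delta_N from Dnmt3a1-/- cortex moved to 67 (no filter) and 479 (block), that of Dnmt3a2-/- to 591 and 294, and that of hippocampus from cortex to 3 (no filter).

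With all 8 wild type cortex libraries the sign turned for Serping1 in Dnmt3a1-/- cortex (0.34), for C1qa (-0.15), C1qb (-0.18), C1qc (-0.28), C4b (-0.16) and Serping1 (-0.10) in Dnmt3a2-/- cortex, for C1qb (0.00054) and C1qc (0.05) in wild type hippocampus over cortex and for C1ra (-0.02) in wild type nuclei over cortex. C3 in the nuclei labelled Dnmt3a1-/- gave -0.06 in DESeq2 and -0.09 with the block. Leaving out 1 library turned the sign for these uncalled members: in Dnmt3a1-/- cortex Serping1 (-0.25 to 0.18) and C3 (-0.64 to 0.38); in Dnmt3a2-/- cortex C1qa (-0.07 to 0.37), C1qb (-0.04 to 0.29), C1qc (-0.04 to 0.16), C1ra (-0.05 to 0.47), C4b (-0.13 to 0.48) and C3 (-0.76 to 0.32); in Dnmt3a1_delta_N cortex C1qa (-0.01 to 0.24), C1qb (-0.004 to 0.23), C1qc (-0.02 to 0.25), C3 (-0.67 to 0.11) and Serping1 (-0.23 to 0.03); in hippocampus C1qa (-0.13 to 0.06), C1qb (-0.13 to 0.08) and C1ra (-0.31 to 0.37); in nuclei C3 (-1.07 to 0.49) and Serping1 (-0.10 to 0.62); in wild type hippocampus over cortex C1qb (-0.12 to 0.07) and C1qc (-0.14 to 0.08). Among wild type series, the adjusted p of C4b ran to 0.056, of Cd59a to 0.11 and of Serping1 to 0.12 without 1 library.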
